A study of Rattus norvegicus with 12 samples.

Results

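The interaction of E2 and 3-MC is the difference between the response to E2 in rats that also received 3-methylcholanthrene (3-MC) and the response in rats that did not. It was calculated for every probe set as (E2 + 3-MC minus 3-MC) minus (E2 minus vehicle) on the log2 scale, and it used 12 of the 12 arrays, 3 rats in each of 4 groups. Female Lewis rats were ovariectomized at about 10 weeks of age and treated 14 days later, with 3 subcutaneous treatments at intervals of 24 h. Vehicle rats received the DMSO and castor oil mixture that all other groups received too. E2 rats received 17β-estradiol at 4 μg per kg body weight per day, 3-MC rats received 3-MC at 15 mg per kg per day, and E2 + 3-MC rats received both at these doses. Glands were taken 24 h after the last treatment, a schedule for which the labels state 48 h. RNA of the whole gland was hybridized to 1 Affymetrix rat gene array per rat, so epithelium, fat, vessels, immune cells and any adjoining muscle were measured together.

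Estradiol acts through estrogen receptors, which bind DNA as ligand-activated transcription factors. In the mammary gland, E2 drives the growth of ducts, partly through growth factors such as amphiregulin, and it induces the progesterone receptor. 3-MC is a polycyclic aromatic hydrocarbon that activates the aryl hydrocarbon receptor (AHR), a transcription factor that binds xenobiotic response elements with its partner ARNT and induces enzymes of the CYP1 family. The question of the design was how an activated AHR alters the response of the gland to E2. An interaction below 0 means that E2 raised a gene less, or lowered it more, in the presence of 3-MC, and an interaction above 0 means the opposite. No interaction on this scale means that the fold changes of both substances multiply.

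Of 30 gene lists, the genes of mitosis had the interaction median farthest from 0. All 36 measured members had an interaction below 0, with a median of -1.24, and 33 of them had an unadjusted p under 0.05 with at least a 1.5-fold interaction. Genes of fatty acid synthesis lay on the other side, with a median of 0.31, and most of them had their lowest values in the E2 rats. Their median was not the highest. Those of the interferon response (0.54), lymphocytes (0.44), myeloid cells (0.38) and chemokines and inflammatory mediators (0.35) were higher. So were those of endothelium (0.34) and immediate early genes (0.33). Milk protein genes had a median of -0.04. All lists were chosen with earlier results of these data known. No single probe set passed the test of the interaction after adjustment. Of the 23371 probe sets tested with limma, 0 (0%) had a Benjamini-Hochberg adjusted p under 0.05 with a 1.5-fold interaction, and the smallest adjusted p was 0.446. At an unadjusted p under 0.05 with a 1.5-fold interaction, 164 probe sets (0.702%) had a positive and 429 (1.84%) a negative interaction. An ordinary linear model without moderation of the spread also called 0, with 96 positive and 277 negative at the unadjusted p. Without regard to size, 1032 probe sets (4.42%) had an unadjusted p under 0.05, no more than this threshold gives where no interaction exists. The values below therefore describe interactions that were not significant one by one.

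The balance of signs rested in part on single rats. Without 3-MC rat 1, the counts at the unadjusted p were 449 positive and 245 negative. Without vehicle rat 2 they were 256 and 284, without 3-MC rat 3 they were 305 and 526, and without 3-MC rat 2 they were 118 and 653. The median interaction of all probe sets was -0.01 and the median standard error 0.22, so that the 95% confidence interval of a typical gene reached 0.48 to either side. Array medians ran from 85.7 to 109.5, and the correlations between arrays from 0.934 to 0.986. Of the 6 rats given 3-MC, 3-MC rat 2 and E2 + 3-MC rat 1 had the AHR targets Cyp1b1, Nqo1 and Ahrr within or below the range of the vehicle rats, and whether they took up less 3-MC was not tested. This touches every interaction reported here. With both left out, which was chosen after seeing the data, 157 positive and 681 negative interactions stood at the unadjusted p, 1 positive interaction was called, and the median interaction was -1.48 for mitosis, -0.42 for luminal markers and 0.43 for fatty acid and triglyceride synthesis. Of the lists, the signs of the medians of the basal markers, skeletal muscle, fatty acid oxidation, NRF2 targets, p53 targets and epidermis turned. Krt18, a keratin of luminal mammary epithelium, was measured at 841 to 2153 in the 12 rats.

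High values in the E2 rats were the most frequent pattern of a single group among the negative interactions. Each probe set was assigned to the group whose removal left the smallest range among the other group means, provided that this range was no more than 50% of the whole. By this rule, 176 of the 429 negative interactions (41.0%) were driven by high E2 values and 61 (14.2%) by low vehicle values. High 3-MC values drove 8 and low E2 + 3-MC values 2, and 182 (42.4%) had no single driving group. The E2 difference was smaller in size with 3-MC than without in 397 (92.5%) of the negative probe sets. In 214 (49.9%) of them it had the opposite sign with 3-MC. Among the 164 positive interactions, low E2 values drove 40 (24.4%), high vehicle values 20, high E2 + 3-MC values 18 and low 3-MC values 11, and 75 (45.7%) had no single driving group. Of all 23371 probe sets tested, high E2 values drove 1796, low vehicle values 2213, low E2 values 1978 and high E2 + 3-MC values 2027. The interaction shares its arrays with both E2 differences, so these counts describe the pattern and are no separate test of it.

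**Figure D1:**
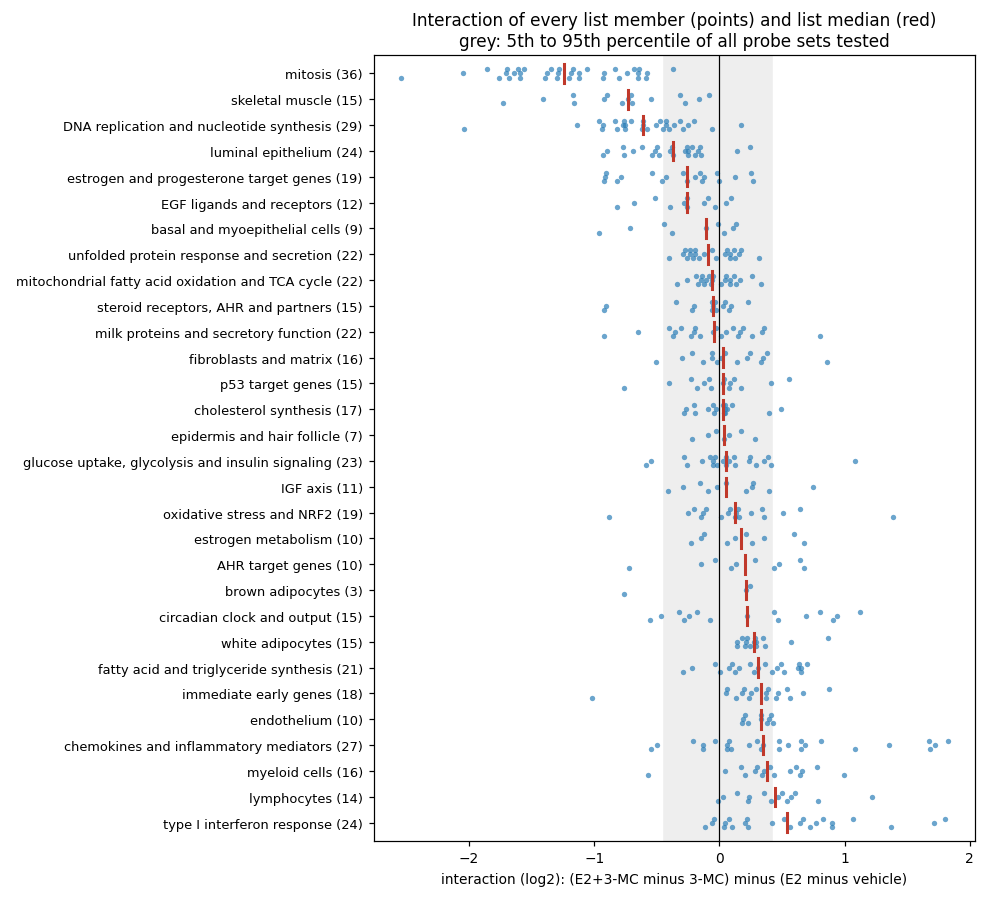
Interaction of E2 and 3-MC on the log2 scale (x axis) for every measured member of 30 gene lists (y axis, number of members tested in brackets), with the list median in red and the 5th to 95th percentile of all probe sets tested (-0.45 to 0.42) in grey. The mitosis genes lie farthest to the left with a median of -1.24, and no member of any list passed the adjusted test.

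Genes of chromosome segregation and cytokinesis rose with E2 without 3-MC. The difference between the settings without and with 3-MC, the interaction, passed the adjusted test for 0 of the 36 in limma. Without 3-MC, 32 of the 36 mitosis genes rose with E2, at a median difference of 1.38, against 303 of all probe sets tested (1.3%) that were called higher and 67 (0.287%) that were called lower. In the presence of 3-MC, 0 of the 36 were called, at a median difference of 0.13. Of all probe sets, 24 (0.103%) were called higher and 2 (0.00856%) lower there, so this 0 is no result about the list. The E2 differences without and with 3-MC share no array. For 25 of the 36, all 3 E2 rats lay above the other 9 rats, against 1.9% of all probe sets. The list was chosen with earlier results of these data known and holds genes that the paper reported as raised by E2 on these arrays. These shares are therefore no separate support, and a high E2 mean also lowers the interaction. High E2 values drove the interaction of 20 members and low vehicle values that of 8, against 1796 and 2213 of the 23371 probe sets tested. The median difference of the members was -0.74 for E2 + 3-MC minus E2 and 0.47 for 3-MC minus vehicle. Neither of these contrasts called any of the 36, or any of all probe sets. In RNA of a whole gland, fewer dividing cells and less of these RNAs per cell cannot be told apart.

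The interaction with the smallest p was that of Nusap1 (nucleolar and spindle associated protein 1, probe set 10838843, chromosome 3, 127057220 to 127092779 in GRCr8), which binds spindle microtubules. Its intensity was 47.3, 24.0 and 72.6 in the vehicle rats and 314, 333 and 302 in the E2 rats. It was 112, 65.3 and 83.9 in the 3-MC rats and 109, 114 and 130 in the E2 + 3-MC rats. The E2 rats stood above all others, and the 3-MC rats overlapped with both the vehicle and the E2 + 3-MC rats. Its interaction was -2.05 ± 0.33 (SE), with a 95% interval from -2.77 to -1.33, an unadjusted p of 3e-05 and an adjusted p of 0.446 in limma. On the scale of log2(intensity + 16), E2 raised Nusap1 5.46-fold without 3-MC (adjusted p = 0.000116, limma), and the ratio with 3-MC was 1.32 (adjusted p = 0.964). Its interaction was the only one called under 2 other settings, on untransformed intensities (adjusted p = 0.0120) and without vehicle rat 3 (adjusted p = 0.0454).

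Top2a (DNA topoisomerase II alpha, which untangles sister chromatids, chromosome 10, 84441954 to 84473093) had the largest negative interaction of all probe sets tested, at -2.54 ± 0.62 (95% interval -3.87 to -1.22). The vehicle rats had intensities of 65.3, 14.4 and 125, and the E2 rats 378, 463 and 378. The 3-MC rats had 261, 92.0 and 148, and the E2 + 3-MC rats 127, 171 and 182. The 3-MC rats thus lay above the vehicle rats in part, with rat 1 highest, and a low value in vehicle rat 2 widened the interval. Plk1 (polo-like kinase 1, which controls mitotic entry and exit) had 48.0, 27.8 and 63.1 in vehicle, 167, 175 and 172 in E2, 144, 54.7 and 83.9 in 3-MC and 74.1, 90.7 and 111 in E2 + 3-MC rats. Its interaction was -1.59 (95% interval -2.39 to -0.79), and the 3-MC and E2 + 3-MC rats again overlapped. Prc1 (protein regulator of cytokinesis 1), at -1.86, Kif15 (a spindle kinesin), at -1.13, and Ccna2 (cyclin A2), at -1.56, complete the mitosis genes among the 12 negative interactions of smallest p.

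Other genes of dividing cells outside the list stood among the same 12. Stmn1 (stathmin, which destabilizes microtubules) had 384, 254 and 456 in vehicle, 1249, 1299 and 955 in E2, 642, 460 and 431 in 3-MC and 565, 462 and 648 in E2 + 3-MC rats. The E2 rats did not overlap with any other group, and the interaction was -1.53 (95% interval -2.19 to -0.87). Aspm (a spindle pole protein) had an interaction of -1.30, Cenpt (a kinetochore protein) of -1.26, Cdca3 (a trigger of mitotic entry) of -1.24 and H1f5 (a linker histone) of -2.02. Among the cyclins and kinesins outside these 12, the interaction was -1.68 for Ccnb1, -1.71 for Ccnb2, -1.70 for Kif11 and -0.80 for Kif2c. Aurka (Aurora kinase A) had the mitosis interaction nearest to 0, at -0.37, with an interval from -0.87 to 0.13.

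The mitosis genes were spread most among the 3-MC rats. The level of the mitosis list, as the median log2 difference of its members from the vehicle mean, was 0.02, -0.36 and 0.33 in the vehicle rats and 1.25, 1.42 and 1.30 in the E2 rats. It was 0.98, 0.00 and 0.56 in the 3-MC rats and 0.49, 0.64 and 0.76 in the E2 + 3-MC rats. The E2 rats lay above all others, and the E2 + 3-MC rats lay within the range of the 3-MC rats. Leaving out 3-MC rat 1 gave a median interaction of -0.98, and leaving out 3-MC rat 2 gave -1.56. In neither case did the sign of the list median change, and 25 to 35 members had an unadjusted p under 0.05 with any 1 rat left out.

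**Figure D2:**
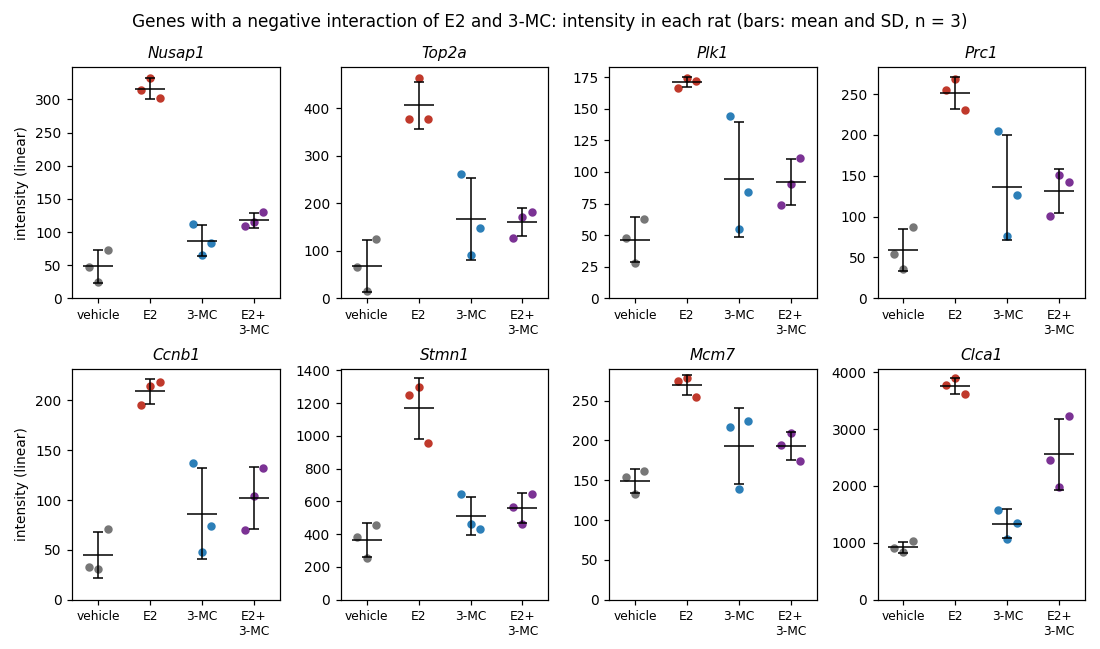
Intensity on a linear scale (y axis, from 0) in each rat of the 4 groups (x axis) for 8 genes with a negative interaction, with the group mean and SD (n = 3). The E2 rats stand above the other 9 rats in every panel, and the E2 + 3-MC rats lie near the 3-MC rats for all genes but Clca1.

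Since the mitosis genes moved together, their promoters were searched, from 250 bases before to 50 after the start of transcription in RefSeq (GRCr8), on both strands. Promoters were found for 29 of the 36 genes. The letters TTTGAA, the core of the cell cycle genes homology region (CHR) through which cell cycle genes are repressed in resting cells, occurred in 21 of the 29 (72.4%) and in 18.1% of all 27457 promoters. The letters CCAAT, the CCAAT box bound by NF-Y, occurred in 19 (65.5%) and in 37.7% of all. Of the DNA replication genes, 1 of 27 promoters (3.7%) held TTTGAA and 17 (63%) held CCAAT. The letters GCGTG, the core of the xenobiotic response element, occurred in 13 of the 29 mitosis promoters (44.8%) and in 31.1% of all. In the other lists searched, GCGTG occurred in 42.9% (clock) to 51.9% (replication) of promoters, so it did not set the mitosis genes apart. The estrogen response element (GGTCA, then any 3 bases, then TGACC) occurred in 0 of the 29 and 0.0255% of all. A match is a description of the letters and shows no binding. The promoters of Nusap1 (chr3:127057045-127057344, plus strand), Plk1 (chr1:186147408-186147707, plus strand) and Top2a (chr10:84473044-84473343, minus strand) are shown because these 3 mitosis genes are described above with their values in every rat. That of Mcm7 (chr12:22163129-22163428, minus strand) stands for the replication genes, and capitals mark TTTGAA and CCAAT or their reverse complements TTCAAA and ATTGG.
Nusap1: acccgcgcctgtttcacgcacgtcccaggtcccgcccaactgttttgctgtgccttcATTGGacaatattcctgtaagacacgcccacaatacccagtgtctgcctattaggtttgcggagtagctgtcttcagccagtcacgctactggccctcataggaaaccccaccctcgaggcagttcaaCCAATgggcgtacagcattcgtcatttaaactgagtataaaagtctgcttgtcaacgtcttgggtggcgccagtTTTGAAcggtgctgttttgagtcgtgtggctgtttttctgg
Plk1: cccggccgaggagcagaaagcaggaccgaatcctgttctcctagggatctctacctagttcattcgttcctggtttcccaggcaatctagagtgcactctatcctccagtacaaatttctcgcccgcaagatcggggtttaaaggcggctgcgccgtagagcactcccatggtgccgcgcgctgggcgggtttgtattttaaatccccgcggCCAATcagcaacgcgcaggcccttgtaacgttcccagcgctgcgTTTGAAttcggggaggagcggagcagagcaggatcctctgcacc
Top2a: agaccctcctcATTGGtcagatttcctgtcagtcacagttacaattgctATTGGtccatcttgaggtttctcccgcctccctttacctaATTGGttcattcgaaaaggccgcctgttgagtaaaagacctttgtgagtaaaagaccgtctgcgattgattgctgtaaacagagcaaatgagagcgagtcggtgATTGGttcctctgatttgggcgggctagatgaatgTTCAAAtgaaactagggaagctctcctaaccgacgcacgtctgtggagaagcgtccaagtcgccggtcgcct
Mcm7: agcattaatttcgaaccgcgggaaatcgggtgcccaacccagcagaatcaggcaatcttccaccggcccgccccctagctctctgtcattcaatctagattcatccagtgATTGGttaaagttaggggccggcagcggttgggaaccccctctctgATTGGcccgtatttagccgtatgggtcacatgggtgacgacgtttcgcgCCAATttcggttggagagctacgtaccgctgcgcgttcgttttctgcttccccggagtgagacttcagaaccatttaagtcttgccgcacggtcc

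TTTGAA lay at bases 10 to 15 after the start site in Nusap1 and at bases 7 to 12 in Plk1, and its reverse complement at bases -22 to -17 in Top2a. The Nusap1 offsets count from a start site downstream of the gene start given above. Mcm7 holds CCAAT boxes and no TTTGAA in this window. Both motifs together occurred in 15 of the 29 mitosis promoters, and neither in 4.

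Genes of DNA replication and nucleotide synthesis had the same sign with smaller values. Of 29 measured members, 28 had an interaction below 0, with a median of -0.61, and 7 had an unadjusted p under 0.05 with a 1.5-fold interaction. The median E2 difference was 0.55 without 3-MC and -0.07 with it, and 1 member was called, without 3-MC. This was Mcm7, a subunit of the replicative helicase (probe set 10760824). Its intensity was 154, 132 and 161 in vehicle, 275, 279 and 255 in E2, 217, 139 and 224 in 3-MC and 194, 210 and 174 in E2 + 3-MC rats. The other 9 rats all lay below the E2 rats, and the interaction was -0.77 (95% interval -1.27 to -0.28). Rrm2 (a subunit of ribonucleotide reductase) had -2.04 and Pcna (the sliding clamp) -1.14, and both had intensities in the 3-MC rats that reached into the range of the E2 rats. Without vehicle rat 2 the median was -0.37. The count of 7 members became 16 without vehicle rat 3, 13 without E2 rat 3 and 19 without 3-MC rat 2.

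Among the remaining negative interactions of smallest p, Clca1 (a secreted regulator of chloride channels, chromosome 2, 236599022 to 236624714) had E2 differences above 0 in both settings. Its intensity was 903, 837 and 1030 in vehicle, 3784, 3895 and 3613 in E2, 1577, 1073 and 1357 in 3-MC and 2463, 1980 and 3224 in E2 + 3-MC rats. The E2 + 3-MC rats lay between the E2 rats and the rest without overlap. The interaction was -1.10 (95% interval -1.64 to -0.55). On the log2 scale, the E2 difference was 2.01 without 3-MC (adjusted p = 5.35e-05, limma) and 0.92 with it (adjusted p = 0.112).

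Estrogen and progesterone target genes had interactions below 0 in 16 of 19 members, with a median of -0.26, and 4 of them had an unadjusted p under 0.05 with a 1.5-fold interaction. Without 3-MC 7 members rose with E2 and with 3-MC 3 did, none fell in either setting, and the median E2 differences were 0.41 and 0.22. Calls over all probe sets went from 303 (1.3%) to 24 (0.103%) between the same settings. Without E2 + 3-MC rat 2 the median interaction of the list was -0.13. Pgr (the progesterone receptor) had intensities of 38.3, 45.6 and 31.1 in vehicle, 795, 838 and 722 in E2, 76.6, 27.5 and 67.8 in 3-MC and 619, 411 and 575 in E2 + 3-MC rats. Every rat given E2 lay above every rat without it, and the E2 + 3-MC rats lay below the E2 rats. E2 raised Pgr 14.8-fold without 3-MC (adjusted p = 8.91e-06, limma) and 7.80-fold with it (adjusted p = 0.000276), an interaction of -0.93 (95% interval -1.66 to -0.19).

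The prolactin receptor gene, Prlr, had 220, 193 and 155 in vehicle, 670, 718 and 591 in E2, 303, 252 and 209 in 3-MC and 527, 365 and 500 in E2 + 3-MC rats. Among the 4 groups there was an overlap only between vehicle and 3-MC, and the interaction was -0.90 (95% interval -1.44 to -0.37). Areg (amphiregulin, an EGF receptor ligand that carries the E2 signal from epithelium to stroma) rose 10.4-fold with E2 without 3-MC and 5.91-fold with it. Its E2 + 3-MC rats, at 356, 288 and 697, spanned the E2 rats, at 572, 498 and 526. The interval of its interaction of -0.82, from -1.70 to 0.05, included 0. Stc2 (stanniocalcin 2), at -0.79, and Cited1 (a transcriptional coactivator), at -0.92, were the other members at the unadjusted p. Of the receptors of the EGF family, Erbb4 had an interaction of -0.69 (95% interval -1.25 to -0.12), and 10 of 12 EGF ligands and receptors had one below 0, with a median of -0.26.

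Some milk genes, Csn1s2a, Csn2 and Aqp5, rose with E2 both without and with 3-MC. Without 3-MC 7 of 22 members of the milk list rose and with 3-MC 3 did, none fell, and the median E2 differences were 0.51 and 0.43. Of all probe sets, 1.3% were called higher without 3-MC and 0.103% with it. Csn1s2a (an alpha-S2 casein) had 59.2, 69.8 and 69.2 in vehicle, 1039, 1165 and 1333 in E2, 59.0, 27.6 and 50.7 in 3-MC and 883, 223 and 1330 in E2 + 3-MC rats. Its E2 difference on the log2 scale was 3.86 without 3-MC and 3.46 with it, both called. Csn2 (beta-casein) had 85.8, 103 and 80.8 in vehicle, 1578, 1500 and 1853 in E2, 308, 39.2 and 135 in 3-MC and 1652, 502 and 1744 in E2 + 3-MC rats. E2 + 3-MC rat 2 was lowest of its group for both caseins, and the other 2 rats of the group lay at or near the range of the E2 rats.

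The intervals of these interactions were wide. For Csn2 the interaction of -0.92 had an interval from -2.52 to 0.68, for Csn1s2a the value was -0.40 (-1.76 to 0.96), and for Wap (whey acidic protein) -0.03 ± 0.48 (SE). Without E2 + 3-MC rat 2, the value of Csn1s2a was 0.33 and that of Wap 0.40, and the median of the milk list turned from -0.04 to 0.20. Aqp5 is an aquaporin of secretory epithelium. Its intensity was 207, 363 and 275 in vehicle, 1053, 1303 and 1297 in E2, 325, 275 and 416 in 3-MC and 1067, 944 and 1482 in E2 + 3-MC rats, and the 2 groups given E2 overlapped. E2 raised Aqp5 4.22-fold without 3-MC and 3.31-fold with it, both called, and the interaction was -0.35 (-1.01 to 0.31), with -0.16 without vehicle rat 1 and -0.54 without vehicle rat 2. Cel (bile salt-activated lipase, a milk enzyme) was the 1 member of the list with an unadjusted p under 0.05, at -0.65.

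All 24 probe sets called higher with E2 in the presence of 3-MC were also called higher with E2 alone, and 21 of them had an interaction below 0. Only 11 of the 24 have 1 gene symbol, and they include Pgr, Areg, Csn2, Csn1s2a and Aqp5. The 2 probe sets called lower were Retn and Lefty1. Retn (resistin, a hormone secreted by rat fat cells) had 1150, 934 and 862 in vehicle, 256, 319 and 365 in E2, 1143, 1287 and 800 in 3-MC and 347, 338 and 443 in E2 + 3-MC rats. Every rat given E2 lay below every rat without it. The E2 difference on the log2 scale was -1.60 without 3-MC and -1.46 with it, both called, and the interaction was 0.14 (95% interval -0.44 to 0.73).

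**Figure D3:**
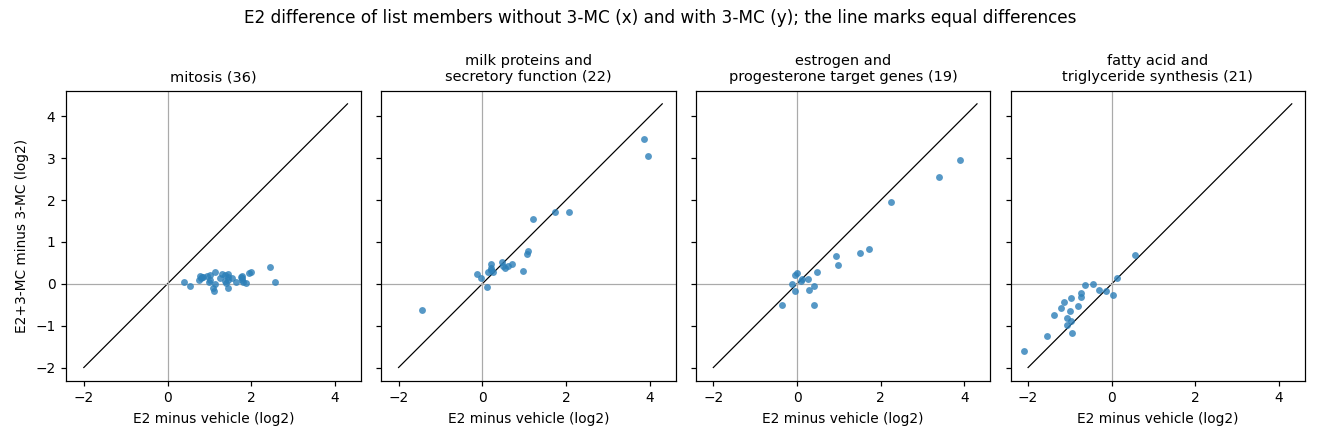
E2 difference on the log2 scale without 3-MC (x axis, E2 minus vehicle) and with 3-MC (y axis, E2 + 3-MC minus 3-MC) for every measured member of 4 gene lists, with a line of equal differences. Mitosis genes lie along 0 on the y axis (median 0.13 against 1.38 on the x axis), and the milk genes lie on both sides of the line, with medians of 0.43 against 0.51.

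Luminal markers shared the sign of the mitosis genes. Of 24 members, 22 had an interaction below 0, with a median of -0.37, and 6 had an unadjusted p under 0.05 with a 1.5-fold interaction. With E2 alone 8 luminal markers rose, against 1.3% of all probe sets. With E2 in the presence of 3-MC 0 were called in limma, where only 0.103% of all probe sets were called higher, so that this 0 is no result about the list. Cldn7 (claudin 7, of tight junctions) had 411, 574 and 499 in vehicle, 1061, 994 and 863 in E2, 689, 850 and 522 in 3-MC and 700, 655 and 717 in E2 + 3-MC rats. The E2 rats lay above all others, and the interaction was -0.93 (95% interval -1.45 to -0.40). Krt8 and Krt18, which pair in the keratin filaments of luminal cells, had -0.90 and -0.77, and Cdh1 (E-cadherin) -0.62, Esrp1 (an epithelial splicing factor) -0.69 and St14 (matriptase) -0.76. The basal and myoepithelial list was mixed. Of 9 members 6 lay below and 3 above 0, and the median of -0.11 turned to 0.14 without 3-MC rat 2. Krt14, at -0.96, and Krt17, at -0.72, were the 2 at the unadjusted p. In Krt14 the E2 rats were spread from 561 to 1210, and E2 + 3-MC rat 1, at 543, lay just below them.

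The level of the luminal list was -0.11, 0.16 and -0.01 in vehicle, 0.69, 0.68 and 0.40 in E2, 0.27, 0.08 and -0.06 in 3-MC and 0.46, 0.11 and 0.36 in E2 + 3-MC rats. The E2 + 3-MC rats overlapped with both the E2 and the 3-MC rats. The part of the epithelial share in the interactions of single epithelial genes was not tested.

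Of the positive interactions of smallest p, the first described here is that of a phosphodiesterase. Smpdl3a (an acid sphingomyelinase-like phosphodiesterase, chromosome 20, 37679004 to 37701979) had 751, 762 and 687 in vehicle, 177, 270 and 293 in E2, 953, 671 and 720 in 3-MC and 492, 567 and 814 in E2 + 3-MC rats. The E2 rats lay below all others, and the E2 + 3-MC rats overlapped with the 3-MC and the vehicle rats. It fell with E2 without 3-MC, at -1.54 on the log2 scale (adjusted p = 0.00309, limma), the E2 difference with 3-MC was -0.33 (adjusted p = 0.964), and the interaction was 1.21 (95% interval 0.57 to 1.85). Scara5 (a ferritin receptor of stromal cells) had 292, 299 and 267 in vehicle, 174, 176 and 188 in E2, 250, 229 and 218 in 3-MC and 239, 221 and 227 in E2 + 3-MC rats. Here the 3-MC and E2 + 3-MC rats overlapped and lay between vehicle and E2 rats, and the interaction was 0.61 (0.27 to 0.95).

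Fatty acid and triglyceride synthesis was the metabolic list with the most such genes. Of 21 members, 18 had an interaction above 0, and 5 had an unadjusted p under 0.05 with a 1.5-fold interaction, with 0 on the negative side. Without 3-MC, 12 members fell with E2, at a median difference of -0.95. With 3-MC, 0 were called in limma, at a median of -0.44. Of all probe sets, 0.287% were called lower without 3-MC and 0.00856% with it, and the 0 is no result about the list. For 14 of the 21, all 3 E2 rats lay below the other 9 rats, against 1.6% of all probe sets. This list, too, was chosen with earlier results of these data known. It holds genes that the paper reported as lowered by E2 on these arrays, such as Acaca and Pc. These shares are therefore no separate support, and a low E2 mean also raises the interaction. By the rule for driving groups, low E2 values drove 7 of the 21, low E2 + 3-MC values 1 and no single group 13. The level of the list was 0.09, -0.28 and 0.29 in vehicle, -0.90, -0.89 and -0.90 in E2, -0.17, 0.19 and 0.07 in 3-MC and -0.55, -0.50 and -0.24 in E2 + 3-MC rats. The E2 + 3-MC rats lay between the E2 rats and the others, with an overlap with vehicle rat 2.

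Fasn (fatty acid synthase) had 2486, 2303 and 3662 in vehicle, 1171, 1226 and 1134 in E2, 2245, 2955 and 3253 in 3-MC and 1656, 1965 and 2017 in E2 + 3-MC rats. Its interaction was 0.65 (95% interval 0.10 to 1.20). Scd (stearoyl-CoA desaturase) had 4872, 4349 and 5791 in vehicle, 3359, 2859 and 3302 in E2, 4426, 5091 and 5061 in 3-MC and 4402, 4770 and 5233 in E2 + 3-MC rats. For Scd the E2 + 3-MC rats overlapped with the 3-MC and vehicle rats, whereas for Fasn they lay below both, and the interaction of Scd was 0.63 (0.21 to 1.05). Acaca (acetyl-CoA carboxylase), at 0.65, Agpat2 (of triglyceride assembly), at 0.64, and Pc (pyruvate carboxylase), at 0.70, were the other 3. The count of 5 depended on single rats, with 3 without vehicle rat 1, E2 rat 2 or 3-MC rat 3, 1 without 3-MC rat 1, 0 without vehicle rat 3 or E2 + 3-MC rat 3, and 9 without vehicle rat 2.

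Pparg, the master regulator of fat cell differentiation, had 783, 635 and 528 in vehicle, 281, 314 and 330 in E2, 445, 609 and 449 in 3-MC and 423, 365 and 563 in E2 + 3-MC rats. The E2 rats were the lowest 3 of 12, and the interaction was 0.87 (95% interval 0.30 to 1.43). All 15 white adipocyte markers had an interaction above 0, with a median of 0.28, and Pparg was the 1 with an unadjusted p under 0.05. The median was 0.12 without E2 + 3-MC rat 3. Pfkfb3 (an activator of glycolysis) had 525, 570 and 343 in vehicle, 241, 209 and 236 in E2, 483, 380 and 591 in 3-MC and 370, 566 and 632 in E2 + 3-MC rats. None of the other 9 was as low as the E2 rats, and the interaction was 1.08 (0.40 to 1.77). In the same list of glucose metabolism, Ptpn1 (a phosphatase of the insulin receptor) had -0.59. The median of that list was 0.05, that of cholesterol synthesis 0.03 and that of fatty acid oxidation -0.06, with 0 of 17 and 0 of 22 members at the unadjusted p in the last 2.

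Plvap (a protein of fenestrated endothelium) had 595, 504 and 836 in vehicle, 375, 376 and 339 in E2, 595, 510 and 565 in 3-MC and 592, 483 and 649 in E2 + 3-MC rats. The E2 rats lay below the other 9, and the interaction was 0.81 (95% interval 0.29 to 1.33). Klf2 (a transcription factor of endothelium and lymphocytes) had 0.76, Smad6 (an inhibitor of BMP signaling) 0.68 and Rgs7 (a regulator of G proteins) 0.80. All 10 endothelial markers of the list had an interaction above 0, with a median of 0.34 and 0 at the unadjusted p.

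Dusp1 (a phosphatase that ends MAP kinase signaling) had the smallest p of the positive named genes. Its intensity was 956, 953 and 764 in vehicle, 472, 400 and 424 in E2, 596, 644 and 797 in 3-MC and 546, 666 and 629 in E2 + 3-MC rats. The E2 rats lay below all others, both groups given 3-MC overlapped, and 3-MC rat 3 lay within the range of the vehicle rats. The interaction was 0.88 (95% interval 0.43 to 1.32). Of 18 immediate early genes, 17 had an interaction above 0, with a median of 0.33. Ccn2 (a matricellular growth factor) had 0.66. Egr2 (a zinc finger transcription factor) was the 1 gene below 0, at -1.02, with 470, 384 and 241 in E2 and 210, 269 and 206 in E2 + 3-MC rats.

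**Figure D4:**
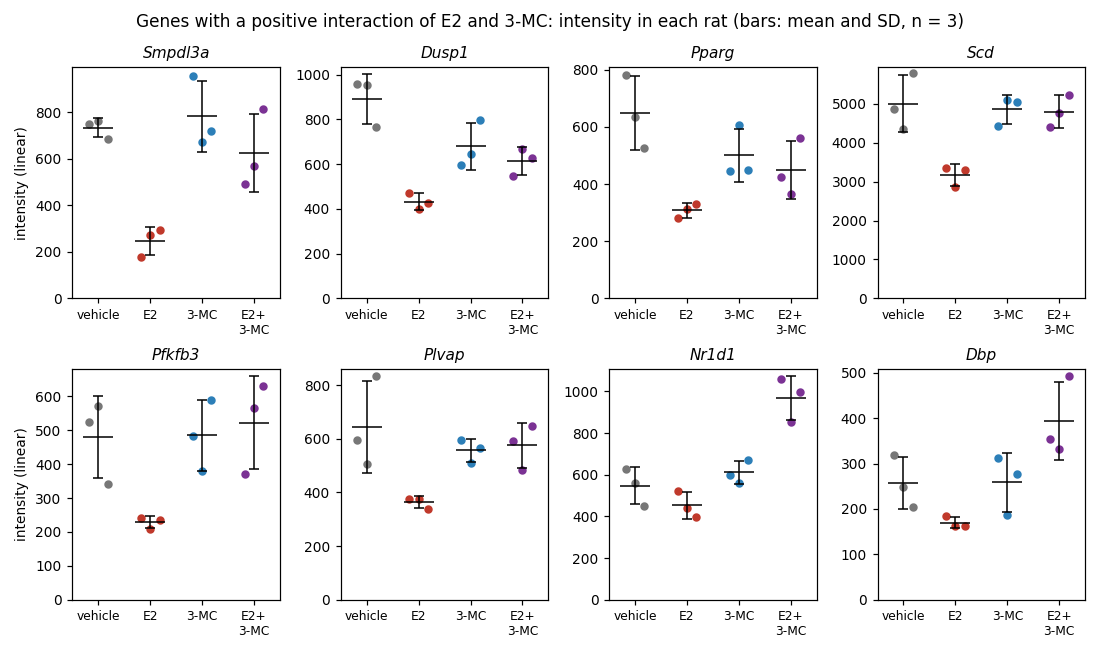
Intensity on a linear scale (y axis, from 0) in each rat of the 4 groups (x axis) for 8 genes with a positive interaction, with the group mean and SD (n = 3). The E2 rats are the lowest for Smpdl3a, Dusp1, Pparg, Scd, Pfkfb3 and Plvap, and the E2 + 3-MC rats are the highest for Nr1d1 and Dbp.

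Of 15 genes of the circadian clock, the interaction was driven by high E2 + 3-MC values in 3, by low E2 values in 3, by low E2 + 3-MC values in 2 and by no single group in 5. Nr1d1 (REV-ERB alpha, a repressor within the clock) had 628, 560 and 452 in vehicle, 524, 439 and 396 in E2, 601, 561 and 672 in 3-MC and 1058, 853 and 997 in E2 + 3-MC rats. The E2 + 3-MC rats lay above the other 9, and the interaction was 0.91 (95% interval 0.44 to 1.38). Dbp (a PAR bZIP activator of clock output) had 319, 248 and 205 in vehicle, 185, 163 and 162 in E2, 312, 186 and 278 in 3-MC and 355, 333 and 492 in E2 + 3-MC rats. The E2 rats were lowest and the E2 + 3-MC rats highest without overlap, and the interaction was 1.12 (0.50 to 1.74).

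Per3 (a clock repressor), at 0.81, and Tef (a relative of Dbp), at 0.69, were the other 2 of 15 clock genes at an unadjusted p under 0.05 with a 1.5-fold interaction. Bmal1, the activator that REV-ERB alpha represses, had 165, 169 and 255 in vehicle, 219, 197 and 200 in E2, 221, 192 and 157 in 3-MC and 142, 125 and 127 in E2 + 3-MC rats. The E2 + 3-MC rats lay below the other 9, opposite to Nr1d1, and the interaction was -0.55 (95% interval -1.06 to -0.05), under the 1.5-fold limit. The median of the list was 0.22, and 7 of the 15 members lay below 0. The count of 4 became 2 without vehicle rat 1. According to the methods, treatments were given 2 h into the light period and the rats were killed 24 h after the last one, the same schedule for every group.

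The AHR targets themselves gave no uniform interaction. Of 12 measured genes of the AHR target list, Cyp1a1 and Serpinb2 lay under the filter on low values. Of the 10 tested, 7 had an interaction above 0, with a median of 0.21. Cyp1b1 (a monooxygenase that hydroxylates E2 and polycyclic aromatic hydrocarbons) had 161, 127 and 211 in vehicle, 97.7, 88.3 and 107 in E2, 553, 101 and 588 in 3-MC and 154, 560 and 407 in E2 + 3-MC rats. In 3-MC rat 2 and E2 + 3-MC rat 1 it lay within or below the range of the vehicle rats, and in the other 4 rats given 3-MC it lay above. Nqo1 (a quinone reductase) showed the same 2 low rats, with 234, 72.8 and 361 in 3-MC and 87.1, 346 and 215 in E2 + 3-MC rats, as did Ahrr (the AHR repressor), with 106, 41.3 and 175 and then 51.0, 168 and 98.4. The intervals were accordingly wide, from -0.95 to 2.30 around 0.68 for Cyp1b1, from -0.92 to 2.20 around 0.64 for Nqo1 and from -0.84 to 1.71 around 0.44 for Ahrr. Without 3-MC rat 2, the interaction was -0.10 for Cyp1b1 and -0.04 for Ahrr.

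Lefty1 (an inhibitor of Nodal signaling, chromosome 13, 95188091 to 95191488) had the smallest p of the AHR list, and high values in the 3-MC rats drove its interaction. The paper had already named it, on these same arrays, as regulated by 3-MC alone. Whether it is an AHR target was not tested. Its intensity was 73.1, 78.3 and 79.5 in vehicle, 65.8, 51.6 and 58.4 in E2, 164, 118 and 128 in 3-MC and 75.4, 54.5 and 46.1 in E2 + 3-MC rats. The 3-MC rats lay above the other 9, and the E2 + 3-MC rats overlapped with the E2 rats. Lefty1 fell with E2 in the presence of 3-MC, at -1.04 on the log2 scale (adjusted p = 0.0167, limma), and the difference without 3-MC was -0.32 (adjusted p = 0.470). The interaction was -0.72 (95% interval -1.20 to -0.24).

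The interactions of the receptors for E2 and 3-MC lay near 0, with wide intervals. Esr1 (estrogen receptor alpha) had an interaction of -0.21 (95% interval -1.13 to 0.72), with 250 to 447 in vehicle, 294 to 397 in E2, 150 to 412 in 3-MC and 201 to 287 in E2 + 3-MC rats. Its sign depended on the setting, with 0.18 under array weights and 0.05 without 3-MC rat 2. Ahr had -0.22 (-0.74 to 0.29), and all 4 groups overlapped, between 217 and 336. Of 15 receptors and partners, the 2 at the unadjusted p were Pgr and Prlr, described above, and the median was -0.05. Of 10 genes of estrogen metabolism, 0 were at the unadjusted p, with a median of 0.17. In the stress lists, Gpx2 (a glutathione peroxidase of epithelia) had -0.89 and Serpinb5 (maspin, of epithelial cells) -0.76, as the 1 member at the unadjusted p in each, and the list medians were 0.12 for NRF2 targets and 0.03 for p53 targets. The unfolded protein response had a median of -0.09 and the IGF axis of 0.05, with 0 of 22 and 0 of 11 members at the unadjusted p in limma.

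Immune genes gave positive list medians and uneven values among the rats given 3-MC. The 24 interferon response genes had a median interaction of 0.54 and the 14 lymphocyte markers 0.44. The 16 myeloid markers had 0.38 and the 27 genes of chemokines and inflammatory mediators 0.35. Each of these medians depended on single rats. That of the lymphocyte markers was 0.20 without E2 + 3-MC rat 2 and 0.68 without E2 + 3-MC rat 1. Those of the myeloid markers and of the chemokine and mediator list were 0.11 and 0.15 without 3-MC rat 2. Their highest values were 0.59 without 3-MC rat 1 and 0.66 without 3-MC rat 3, in the same order. At the unadjusted p with a 1.5-fold interaction stood 0 interferon genes and 2 members of the chemokine and mediator list. These were Ccl20 (a chemokine for CCR6), at 0.68, and Nfkbia (the inhibitor of NF-kappa B, not a chemokine), at 0.65. The level of the interferon list was -0.01, -0.44 and 0.44 in vehicle, -0.11, -0.18 and -0.25 in E2, 1.51, -0.08 and 0.03 in 3-MC and 0.24, 0.99 and 1.08 in E2 + 3-MC rats. 3-MC rat 1 stood above the other 11, followed by E2 + 3-MC rats 3 and 2, and the list median was 0.92 without 3-MC rat 1 and 0.29 without 3-MC rat 2. Mx1 (an interferon-induced antiviral GTPase) showed this most, with 829 in 3-MC rat 1 against 60.6 and 60.1 in its group, and its interaction of 1.72 had an interval from -0.75 to 4.18. Ifng (interferon gamma, of lymphocytes) was more even, at 68.4, 61.0 and 45.7 in 3-MC and 88.0, 97.8 and 93.2 in E2 + 3-MC rats, with an interaction of 0.88 (0.37 to 1.38), and 97.8 was its highest intensity in the 12 rats.

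The level of skeletal muscle markers varied more between rats than that of any other list. Over 15 markers it was 1.55, 2.20 and -3.89 in vehicle, -0.39, -2.69 and -1.15 in E2, 1.05, 1.58 and -3.67 in 3-MC and -2.35, -1.99 and -3.45 in E2 + 3-MC rats. Vehicle rat 3, 3-MC rat 3, E2 rat 2 and all E2 + 3-MC rats were the lowest, and the median interaction of the markers was -0.73 with 0 at the unadjusted p. That median turned to 1.05 without vehicle rat 3, 0.19 without 3-MC rat 2 and 0.21 with array weights. With the muscle level as a covariate, the median interaction was -1.31 for the mitosis genes and 0.20 for fatty acid and triglyceride synthesis, and the smallest adjusted p over all probe sets was 0.0775. The fibroblast list had a median of 0.03 and that of epidermis and hair follicle of 0.03. Of 5 brown adipocyte markers measured, 3 passed the filter on low values, with a median of 0.21.

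**Figure D5:**
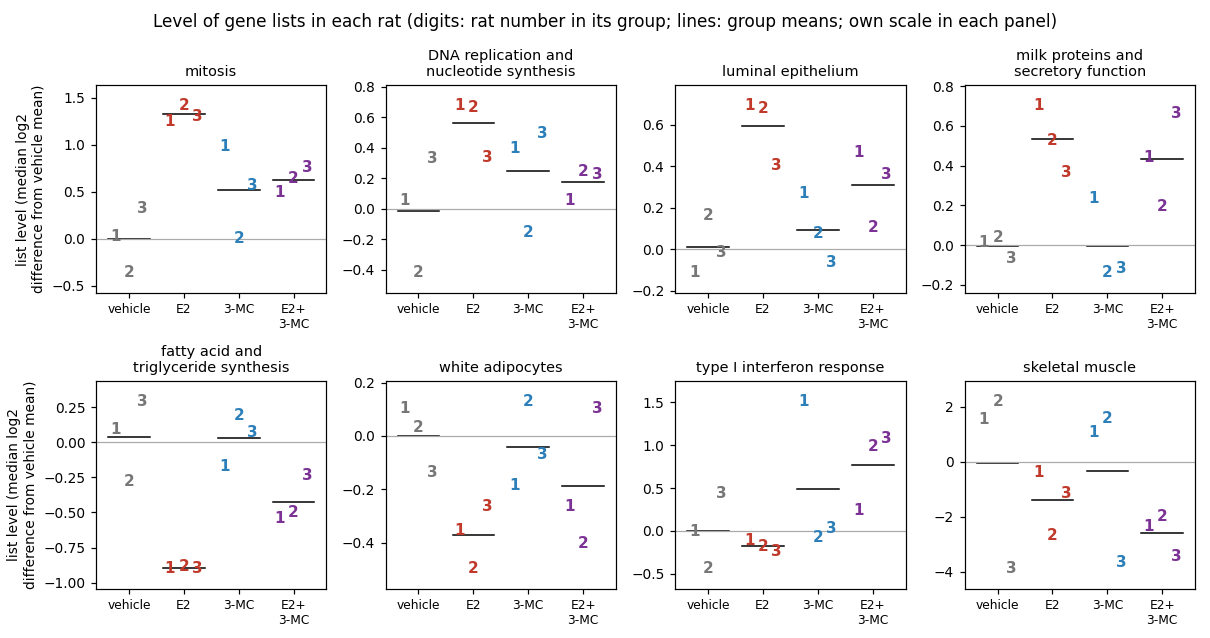
Level of 8 gene lists (y axis, median log2 difference of the members from the vehicle mean, each panel with its own scale) in each rat, shown by its number within its group (x axis), with lines at the group means. The E2 rats stand apart for mitosis (1.25 to 1.42) and fatty acid synthesis (-0.90 to -0.89), and single rats stand apart for the interferon response and skeletal muscle.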

How the data were processed

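Total RNA of whole mammary glands (RNA integrity number of at least 7, per the methods) was labeled and hybridized to Affymetrix rat gene arrays, 1 array per rat. The deposited values are linear signal intensities. The methods name PLIER, and Affymetrix Expression Console for the quality check. The methods also name GeneSpring, quantile normalization, a baseline set by the controls and a filter at the 20th percentile. The deposited intensity values are not centred on the controls, do not share 1 distribution and still hold 29214 probe sets.

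The analysis took log2(intensity + 16) of the values as deposited and tested the 23371 probe sets whose mean lay above the 20th percentile, in R 4.3.3 with limma 3.58.1, with 1 coefficient per group (4 groups) and 1 moderated estimate of the spread. Tests were two-sided, p values were adjusted by Benjamini-Hochberg over all probe sets tested, and calls needed an adjusted p below 0.05 together with a difference of 1.5-fold or more. Fold changes are on the log2(intensity + 16) scale, which understates those of low intensities. The procedure was tested on simulated data. The number of arrays limits the precision.

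Of the probe sets, 15310 have 1 gene symbol in the platform annotation, 323 have several and 13581 have none here. By gene ID, 15279 matched RefSeq (GRCr8), from which positions and promoters come. A gene was represented by its probe set of highest mean. Of 595 list entries, 533 had a probe set, and the few under the filter on low values were not tested. Mki67 and Kif18a were among the genes without a probe set named here. Genes named were the 12 of smallest unadjusted p in each direction, since none was called, the genes the study examined one by one, up to 4 members of each list by p, and the AHR targets. The members and lists were chosen with earlier results of these data known. Alternatives were other filters, pseudocounts of 1 and 32, repeated quantile normalization, median centring, untransformed intensities, 1 probe set per gene, trend and robust settings, array weights, no moderation, rat number as a block, muscle level as a covariate, other fold thresholds, leaving out each rat and, chosen after seeing the data, leaving out 3-MC rat 2 with E2 + 3-MC rat 1, where a group of 2 rats borrowed the pooled spread. Same-numbered rats of different groups deviated together (r over 0.1) in 9 of 18 comparisons, in all 3 only for vehicle and 3-MC. The numbers were therefore not taken as pairs over the 4 groups. Each vehicle rat matched its same-numbered 3-MC rat best, at an r of 0.34, 0.44 and 0.56. Each E2 rat also matched its same-numbered E2 + 3-MC rat best, at a lower r of 0.13, 0.08 and 0.14, so shared origin of some rats remains possible. Python 3.11.15 with matplotlib 3.10.9 made the figures.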

Additional observations from a re-analysis of the deposited data

How the results depend on the processing

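With 3 rats in each group, no interaction was called in limma, and the count stayed at 0 under the alternatives except for 1 negative call, Nusap1, on untransformed intensities and without vehicle rat 3 (range 0 to 1 without any 1 rat), and for 1 positive call, Acod1 (adjusted p = 0.0125 in limma, named after its value was seen), without both 3-MC rat 2 and E2 + 3-MC rat 1, an alternative chosen after seeing the data. That alternative gave 157 positive and 681 negative at the unadjusted p and 14 replication genes. The counts at an unadjusted p under 0.05, 164 positive and 429 negative, were 371 and 661 with no fold threshold, 19 and 118 at 2-fold, 84 and 246 with the filter at the 50th percentile, 374 and 726 on untransformed intensities, 71 and 213 with 1 probe set per gene and 96 and 277 without moderation. They ranged from 118 to 449 and from 245 to 653 without any 1 rat. With rat number as a replicate block they were 166 and 469, with 0 called. The 33 mitosis genes became 10 with the filter at the 50th percentile, which tests fewer genes, and ranged from 25 to 35 without any 1 rat. The 7 replication genes became 2 at 2-fold, 13 with quantile normalization or array weights, 12 with median centring, 4 without moderation and 16 with the muscle covariate (5 to 19 without any 1 rat). The 6 luminal markers became 0 at 2-fold (4 to 9), the 5 genes of fatty acid synthesis 0 at 2-fold, 2 on untransformed intensities and 3 with the muscle covariate (0 to 9), and the 4 clock genes 1 at 2-fold (2 to 6). The sign reversed for Wap with quantile normalization (0.0043), array weights (0.19) and the muscle covariate (0.050), for Retn on untransformed intensities (-32.1) and for Esr1 with array weights (0.18). Without any 1 rat, the interaction ranged from -0.36 to 0.40 for Wap, -0.035 to 0.83 for Ahrr, -0.10 to 1.19 for Cyp1b1, -0.63 to 0.050 for Esr1, -0.056 to 0.28 for Retn and -0.91 to 0.33 for Csn1s2a. The causes of these changes were not tested. Without any 1 rat, Dlgap5l2 ranged from -0.27 to 0.041 and Mfap3l from -0.25 to 0.065. No other gene for which the alternatives were run changed sign.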

Other observations

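Of the 11 named genes called higher with E2 both without and with 3-MC, 5 belong to none of the gene lists and were chosen after their values were seen. Cyp2e1, a monooxygenase of small molecules, had an E2 difference on the log2 scale of 2.11 without 3-MC and 2.40 with it, and an interaction of 0.29 ± 0.45 (SE). Dlgap5l2 had differences of 2.39 and 2.30. Aadat, an aminotransferase of lysine and tryptophan breakdown, had 1.38 and 1.16, and Mfap3l had 1.10 and 1.01. Bco2, which cleaves carotenoids, had 2.95 and 2.07, and its interaction of -0.88 had an unadjusted p of 0.0285 and an adjusted p of 0.982 in limma. The other 13 probe sets called higher with E2 in the presence of 3-MC have no single gene symbol here.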
